A study of Mus musculus with 10 samples.

Results

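The Arp2/3 complex subunits were followed at the transcript level in primary mediastinal T cell lymphomas of mice carrying the NPM-ALK transgene. The members were set by gene symbol, as the 9 genes Actr2, Actr3, Arpc1a, Arpc1b, Arpc2, Arpc3, Arpc4, Arpc5 and Arpc5l. Of these, 7 had a probe set with a single gene symbol and all 7 were among the 12670 genes above the filter on dim probe sets. Actr2 and Arpc3 were not analysed here. Each gene was read from the probe set with its highest mean, and Arpc1b alone had 2 probe sets. Lymphomas labelled WASP -/- came from 5 NPM-ALK mice that lacked WASP, and lymphomas labelled WT from 5 NPM-ALK mice with intact WASP, with 1 microarray each. Both groups carried NPM-ALK, the fusion kinase of many anaplastic large cell lymphomas in people, on a C57BL/6 background, and the tumours arose at 4 to 5 months of age. By the design text, males and females entered the WASP -/- group. Neither the sex of a single animal nor the promoter of the transgene nor the deleted part of Was is stated in the sources used here. Levels below are log2 intensities and differences are WASP-deficient minus WASP-intact on the same scale.

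The Arp2/3 complex nucleates a new actin filament from the side of an existing one, which builds the branched networks under the membrane of moving and contacting cells. It is nearly inactive alone and is switched on by nucleation promoting factors such as WASP, the product of Was, which links the T cell receptor to branched actin in blood cells. Arp2 and Arp3 resemble actin and form the start of the branch, ARPC2 and ARPC4 make the core that holds the mother filament, and the others join these parts. Mammals have alternative genes for some positions, among them Arpc1a or Arpc1b and Arpc5 or Arpc5l.

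The arrays had median linear intensities of 116.7 to 122.7, and their number limits the precision. Cd3e, a defining chain of the T cell receptor complex, was between 12.06 and 12.59 on all 10 arrays. All 4 neutrophil markers looked at and 2 of 3 measured B cell markers were below the filter, whereas all 8 macrophage and all 5 epithelial markers were above it. In bulk samples such as these, fewer cells of a type and less RNA per cell cannot be told apart. Xist, the RNA of the inactive X chromosome, was at 4.50 to 5.58 in the WASP-deficient arrays, and in the WASP-intact arrays it was at 4.40 on array 3 and at 11.52 to 11.90 on the other 4. All 5 WASP-deficient arrays thus had low Xist although that group is described as of both sexes, and apart from WASP-intact array 3 the Xist level cannot be told apart from genotype. Cd2, an adhesion receptor of T cells, split the arrays across genotypes. It was at 11.52 on WASP-deficient array 1 and at 11.18 and 11.30 on WASP-intact arrays 4 and 5, against 6.10 to 6.90 on the other 7. The threshold of log2 9 therefore lay between values of 11.18 and 6.90. These 3 Cd2-high and 7 Cd2-low arrays are defined by a measured gene and are not groups of the study, so they are described without a test.

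The comparison of genotypes asked whether the transcripts of the complex differ when its activator WASP is missing. Was checked the labels first. It was at 8.20, 8.17, 7.92, 8.14 and 7.96 in the WASP-deficient arrays, against 9.25, 9.12, 9.11, 9.34 and 9.27 in the WASP-intact arrays. The 2 groups did not overlap, and the difference was -1.14 (SE 0.08, limma adjusted p = 0.00088). The call on Was ended once Xist was a covariate (-1.06, limma adjusted p = 0.376), and the range over all alternatives was 0.000377 to 0.376.

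None of the 7 subunits passed the test of genotype, and the 2 groups overlapped for each of them. By limma 0 of 7 were called, with adjusted p = 0.999 for every one and 0 with an unadjusted p under 0.05. By exact two-sided permutation tests 0 of 7 were under 0.05, with unadjusted p between 0.175 and 0.73. Over all 12670 genes 0.00789% were called, which was Was alone, and 0.568% did not overlap between genotypes, so a count of 0 among 7 is near what all genes show. Values were higher in the WASP-deficient lymphomas for 4 subunits and lower for 3, with a median of 0.03 over the 7 against -0.004 over all genes tested. The differences ran from -0.32 for Arpc1b to 0.07 for Arpc1a. With Xist as a covariate Arpc5 was at 0.22 and Arpc2 at 0.13, both with limma adjusted p = 1. Of 10 lists of cell type markers, the mean of 4 adipocyte markers was the single one that did not overlap between genotypes, at 6.94 to 7.44 in the WASP-deficient arrays against 7.46 to 8.10 in the WASP-intact ones. Of these 4, only Adipoq did not overlap, at 5.45 to 6.35 in the WASP-deficient arrays against 6.60 to 7.56 in the WASP-intact ones. Cidec, Fabp4 and Plin1 overlapped. The mean of 5 epithelial markers was 7.55 to 8.39 in the WASP-deficient arrays, against 6.70 to 7.68 in the WASP-intact ones. Only Cldn4 among them did not overlap, at 7.39 to 7.85 in the WASP-deficient arrays against 6.84 to 7.30 in the WASP-intact ones. Among the macrophage markers, whose mean overlapped, only Fcgr3 did not. It was at 8.47 to 9.42 in the WASP-deficient arrays, against 7.99 to 8.43 in the WASP-intact ones. The part of such RNA in the genotype differences was not tested.

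**Figure D1:**
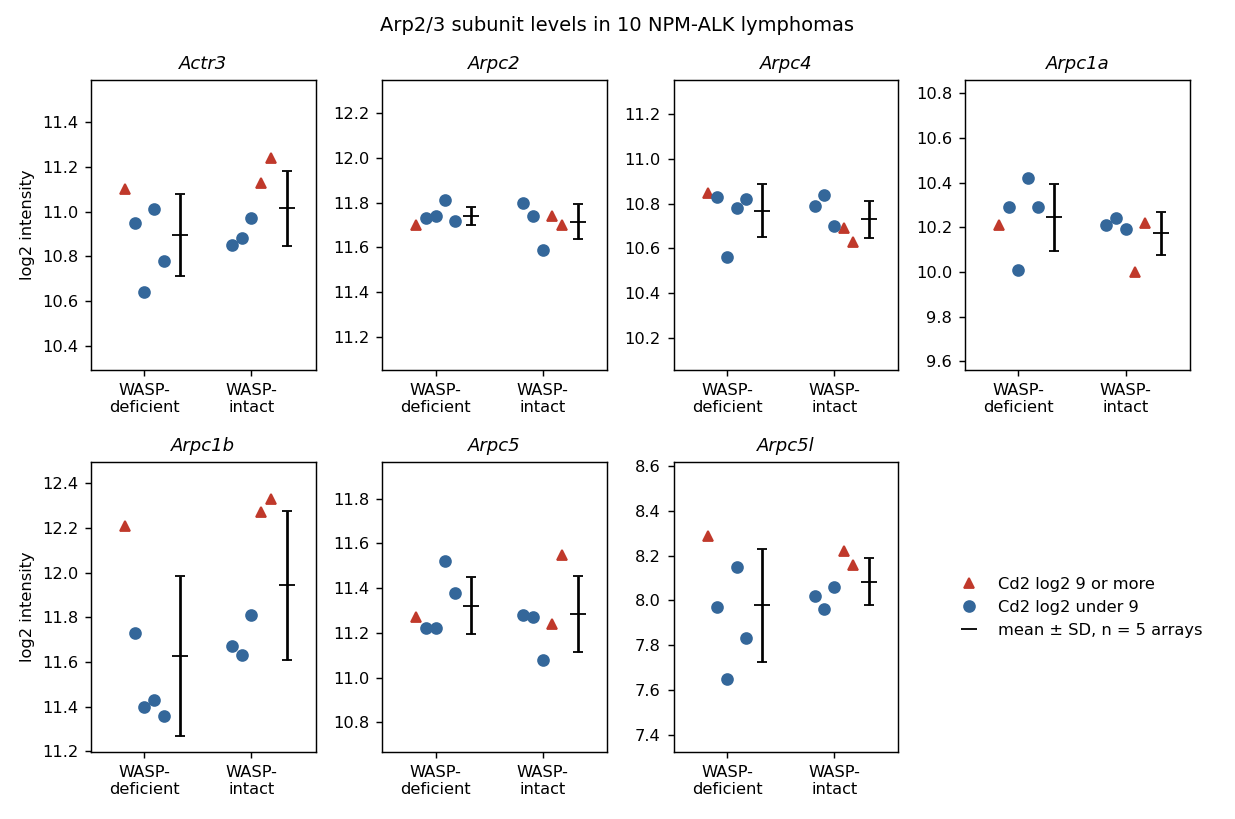
Each panel plots 1 Arp2/3 subunit as log2 intensity (vertical axis, every panel spanning 1.3 log2 units) in 5 WASP-deficient and 5 WASP-intact lymphomas, with red triangles for the 3 arrays of Cd2 at log2 9 or more, blue circles for the other 7, and bars for the mean ± SD of each genotype. The genotypes overlap in all 7 panels, and the red triangles stand clear of the circles for Arpc1b, with Cd2-high arrays at 12.21 to 12.33 and Cd2-low arrays at 11.36 to 11.81.

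Actr3, which encodes Arp3, was at 11.10, 10.95, 10.64, 11.01 and 10.78 in the WASP-deficient lymphomas, against 10.85, 10.88, 10.97, 11.13 and 11.24 in the WASP-intact ones. The lowest and second lowest of all 10 values were WASP-deficient arrays 3 and 5, and the rest of both groups lay mixed. The difference was -0.12, with a 95% interval from -0.37 to 0.13 (limma adjusted p = 0.999, n = 5 each).

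Arpc2, one of the core subunits, was at 11.70, 11.73, 11.74, 11.81 and 11.72 in the WASP-deficient lymphomas, against 11.80, 11.74, 11.59, 11.74 and 11.70 in the WASP-intact ones. All 10 values lay within 0.22 of each other, with the lowest on WASP-intact array 3 and the highest on WASP-deficient array 4. The difference was 0.03, with a 95% interval from -0.12 to 0.17. Arpc4, the other core subunit, averaged 10.77 ± 0.12 in the WASP-deficient lymphomas and 10.73 ± 0.08 in the WASP-intact ones (SD, n = 5 each). Its difference was 0.04, with a 95% interval from -0.14 to 0.22, and WASP-deficient array 3 was its lowest value at 10.56.

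Arpc1a and Arpc1b encode alternative forms of the WD-repeat subunit, which lies where activators touch the complex. ARPC1B is the form that prevails in blood cells, and its loss in people causes an immune deficiency with abnormal platelets. The 2 genes are neighbours on mouse chromosome 5. Their promoters are shown because this was, of the 2 paralogue pairs, the one whose members went apart more across the lymphomas. Each runs from 250 bases before to 50 bases after the start of the gene on the plus strand, 5′ to 3′, from RefSeq on build GRCm38.p6, with matches to GGGCGG (the GC box) and CCGGAAG (an ETS factor motif) on either strand in capitals. Arpc1a lies at chr5:145083619-145083918 and Arpc1b at chr5:145114006-145114305.
Arpc1a: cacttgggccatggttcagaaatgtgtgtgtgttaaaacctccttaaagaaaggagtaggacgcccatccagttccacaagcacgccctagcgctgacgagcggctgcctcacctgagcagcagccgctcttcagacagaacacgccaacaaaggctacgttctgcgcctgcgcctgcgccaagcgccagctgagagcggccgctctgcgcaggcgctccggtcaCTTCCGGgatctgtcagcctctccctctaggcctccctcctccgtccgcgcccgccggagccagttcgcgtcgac
Arpc1b: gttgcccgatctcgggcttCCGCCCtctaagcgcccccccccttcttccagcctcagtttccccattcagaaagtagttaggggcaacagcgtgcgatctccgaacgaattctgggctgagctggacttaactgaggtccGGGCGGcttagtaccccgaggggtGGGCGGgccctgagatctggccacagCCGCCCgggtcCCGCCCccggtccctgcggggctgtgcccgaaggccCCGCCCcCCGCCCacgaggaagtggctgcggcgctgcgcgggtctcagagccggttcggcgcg
The Arpc1b window held 7 matches to GGGCGG and 0 to CCGGAAG, and the Arpc1a window 0 and 1. GGGCGG was in 35.7% and CCGGAAG in 8.9% of 32851 mouse promoters of the same length. Neither window matched the CCAAT box (letters CCAAT), found in 37.4% of all promoters, or the TATA box (TATAAA), found in 13.6%. Neither matched the E-box (CACGTG), found in 7.2%, or the CArG box of serum response factor, found in 1.6%, again over both strands. Among 8 subunit promoters given, with Arpc5l not among them, 6 held GGGCGG and 5 held CCGGAAG. These matches describe letters and were not tested as binding sites. Other forms of the GC box or of ETS motifs were not counted.

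Arpc1b was at 12.21, 11.73, 11.40, 11.43 and 11.36 in the WASP-deficient lymphomas, against 11.67, 11.63, 11.81, 12.27 and 12.33 in the WASP-intact ones. The 3 Cd2-high arrays, 1 WASP-deficient and 2 WASP-intact, were far above the other 7. The WASP-deficient mean was 11.63 ± 0.36 and the WASP-intact mean 11.94 ± 0.33 (SD, n = 5 each), a ratio of 0.804. The difference of -0.32 had a 95% interval from -0.76 to 0.13 and did not pass (limma adjusted p = 0.999). Without the 3 Cd2-high arrays it was -0.22 (limma adjusted p = 0.999, 4 against 3 arrays), with the Cd2 set as a block -0.19 (adjusted p = 1) and with array weights -0.10 (adjusted p = 1). The second Arpc1b probe set shares its source transcripts with the first and is no independent measure. It was at 12.11, 11.64, 11.32, 11.38 and 11.33 in the WASP-deficient lymphomas, against 11.69, 11.58, 11.70, 12.24 and 12.19 in the WASP-intact ones, and put the same 3 arrays on top.

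Arpc1a varied much less. It was at 10.214, 10.292, 10.011, 10.424 and 10.292 in the WASP-deficient lymphomas, against 10.214, 10.242, 10.187, 9.995 and 10.224 in the WASP-intact ones. WASP-intact array 4, the second highest for Arpc1b, was the lowest for Arpc1a, followed by WASP-deficient array 3. The difference of 0.07 had a 95% interval from -0.13 to 0.28 (limma adjusted p = 0.999).

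Arpc5 and Arpc5l encode alternative forms of the smallest subunit, which ties Arp2 to the rest of the complex. Arpc5 was at 11.27, 11.22, 11.22, 11.52 and 11.38 in the WASP-deficient lymphomas, against 11.28, 11.27, 11.08, 11.24 and 11.55 in the WASP-intact ones. High values occurred in both groups, on WASP-deficient array 4 and WASP-intact array 5, and the difference was 0.04 with a 95% interval from -0.18 to 0.26. Arpc5l was at 8.29, 7.97, 7.65, 8.15 and 7.83 in the WASP-deficient lymphomas, against 8.02, 7.96, 8.06, 8.22 and 8.16 in the WASP-intact ones. The WASP-deficient values spread more widely (SD 0.25, against 0.10 in the WASP-intact ones) and held both the highest and the lowest of the 10. Its difference was -0.11, with a 95% interval from -0.38 to 0.16 (limma adjusted p = 0.999).

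**Figure D2:**
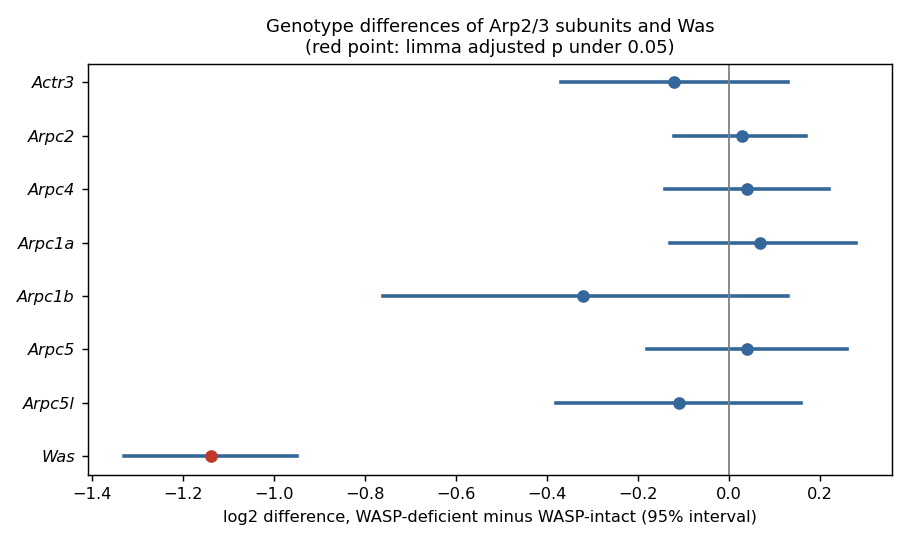
Points are log2 differences, WASP-deficient minus WASP-intact, of 7 Arp2/3 subunits and Was (rows), and lines their 95% intervals from limma over 5 arrays per genotype, with a red point where the adjusted p was under 0.05. All 7 subunit intervals include 0, Arpc1b has the widest at -0.76 to 0.13, and Was lies apart at -1.14.

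The 2 paralogue pairs were then compared within each array, as the log2 of one over the other. Such a ratio shows whether 2 probe sets changed unequally and is no measure of which protein is more abundant. Arpc1b minus Arpc1a was 1.99, 1.44, 1.39, 1.01 and 1.07 in the WASP-deficient lymphomas, against 1.46, 1.39, 1.62, 2.27 and 2.11 in the WASP-intact ones. The 2 lowest ratios were WASP-deficient and the 2 highest WASP-intact, with the groups overlapping between them. These 2 highest were the Cd2-high WASP-intact arrays, and the next at 1.99 was the Cd2-high WASP-deficient array. The mean was 1.38 ± 0.39 in the WASP-deficient lymphomas and 1.77 ± 0.40 in the WASP-intact ones (SD, n = 5 each), a difference of -0.39 with a 95% interval from -0.89 to 0.11. It did not pass (exact two-sided permutation p = 0.135, 0.27 after Benjamini-Hochberg over the 2 pairs), and 0.00794 is the smallest p that 5 against 5 allow. Without the Cd2-high arrays the difference was -0.26 (exact permutation adjusted p = 0.2). With the Cd2 set as a block it was -0.24 (limma adjusted p = 0.0826).

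Arpc5l minus Arpc5 was -2.98, -3.26, -3.58, -3.37 and -3.56 in the WASP-deficient lymphomas, against -3.25, -3.31, -3.02, -3.02 and -3.39 in the WASP-intact ones. The groups overlapped over most of their range. The difference of -0.15, with a 95% interval from -0.44 to 0.14, did not pass either (exact two-sided permutation p = 0.317, adjusted p = 0.317 over the 2 pairs). Within the 7 Cd2-low arrays no relation of Arpc1b and Arpc1a was detected (Pearson r = -0.04, exact permutation p = 0.943, and Spearman rho = -0.11, exact permutation p = 0.84). For Arpc5l and Arpc5 Pearson r was 0.21 (exact permutation p = 0.658) and Spearman rho 0.11 (exact permutation p = 0.84), and the adjusted p over the 2 relations was 0.943 for both. Without the 2 arrays farthest from the median of Arpc1a or Arpc5, r was -0.62 and 0.04 over 5 arrays.

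**Figure D3:**
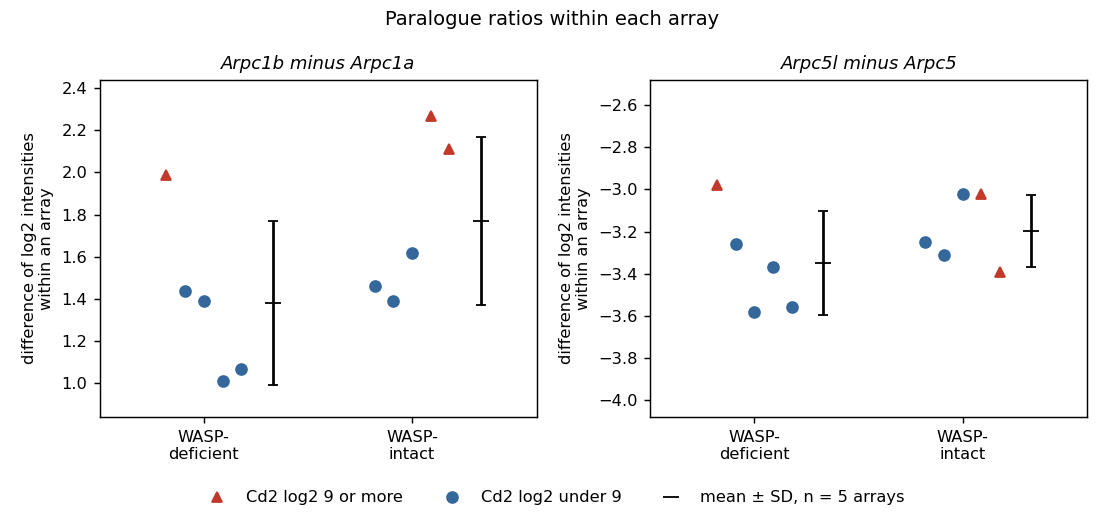
Each point is the difference of the log2 intensities of 2 paralogues within 1 array (vertical axis, log2 units), for 5 WASP-deficient and 5 WASP-intact lymphomas, with red triangles for the 3 Cd2-high arrays and bars for mean ± SD. For Arpc1b minus Arpc1a the triangles lie at 1.99 to 2.27 above all circles at 1.01 to 1.62, and for Arpc5l minus Arpc5 they lie among the circles.

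By Cd2 set, Arpc1b stood out among the subunits. It was at 12.21, 12.27 and 12.33 in the 3 Cd2-high arrays, against a lowest of 11.36, a median of 11.63 and a highest of 11.81 in the 7 Cd2-low arrays. The gap between the nearest arrays of the sets was 0.40, and the median of the Cd2-high arrays was 0.64 higher, a ratio of 1.56. This order was seen inside both genotypes, with WASP-deficient array 1 at 12.21 above the other 4 WASP-deficient arrays at 11.36 to 11.73, and WASP-intact arrays 4 and 5 at 12.27 and 12.33 above the other 3 at 11.63 to 11.81. Actr3 was at 11.10 to 11.24 in the Cd2-high arrays, against 10.64 to 11.01 in the Cd2-low ones, a gap of 0.09 that was 0.03 once arrays were centred on their medians. Arpc5l was at 8.16 to 8.29 in the Cd2-high arrays, against 7.65 to 8.15 in the Cd2-low ones, a gap of 0.01 that became an overlap under the same centring.

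These 3 of 7 subunits were the ones whose Cd2-high arrays all lay higher, and 0 of 7 lay all lower. Over all other genes tested, 14.4% lay all higher and 16.1% all lower, so a separation of this kind was common. A gap at least as large as that of Arpc1b was found in 4.22% of genes, as large as that of Actr3 in 10.5% and as large as that of Arpc5l in 13.6%. For Arpc1a (9.995 to 10.224 in the Cd2-high arrays, against 10.011 to 10.424 in the Cd2-low ones), Arpc2, Arpc4 and Arpc5 the sets overlapped. Their Cd2-high medians differed from the Cd2-low medians by -0.03, -0.04, -0.10 and 0.00. Arpc1b minus Arpc1a accordingly separated the sets, at 1.99 to 2.27 in the Cd2-high arrays against 1.01 to 1.62 in the Cd2-low ones, whereas Arpc5l minus Arpc5 did not, at -3.39 to -2.98 in the Cd2-high arrays against -3.58 to -3.02 in the Cd2-low ones.

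**Figure D4:**
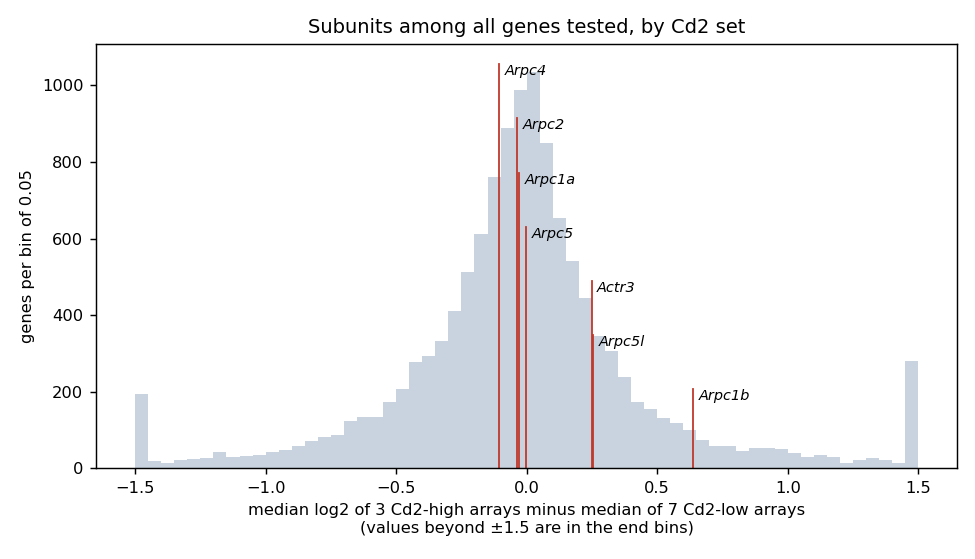
The histogram counts all genes tested other than Cd2 by the median log2 intensity of the 3 Cd2-high arrays minus that of the 7 Cd2-low arrays (horizontal axis, bins of 0.05, values beyond 1.5 in the end bins), and red lines mark the 7 subunits, their heights carrying no value. Arpc1b lies at 0.64 in the right flank, Arpc5l and Actr3 at 0.26 and 0.25, and the other 4 between -0.10 and 0.00.

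Other cell type markers were set beside this split. The mean level of 4 fibroblast markers was 8.97 to 9.52 in the Cd2-high arrays, against 7.68 to 8.70 in the Cd2-low ones, and was the single list of 10 that separated the sets when Cd2 was kept among the T cell markers. Of these markers Dcn and Pdgfra separated the sets, and Col1a1 and Col3a1 overlapped. The mean of 8 macrophage markers was 8.80 to 9.24 in the Cd2-high arrays, against 8.66 to 9.47 in the Cd2-low ones. Of these markers only Adgre1 separated the sets, at 8.41 to 8.67 in the Cd2-high arrays against 7.11 to 8.28 in the Cd2-low ones. The mean of 3 endothelial markers was 8.42 to 8.63 in the Cd2-high arrays, against 7.98 to 8.69 in the Cd2-low ones. The 4 neutrophil markers averaged 5.67 to 6.13 in the Cd2-high arrays, against 5.49 to 6.03 in the Cd2-low ones, all under the filter at log2 6.35. The mean of all 6 T cell markers was 8.98 to 10.03 in the Cd2-high arrays, against 9.77 to 10.02 in the Cd2-low ones, and without Cd2, which defines the split, that of the other 5 was 8.54 to 9.73 in the Cd2-high arrays against 10.34 to 10.80 in the Cd2-low ones. Among these 5, Cd3e, Thy1 and Cd5 overlapped between the sets. Cd3d was at 5.26 to 6.47 in the Cd2-high arrays, against 8.96 to 10.08 in the Cd2-low ones, and Cd3g at 6.29 to 10.24 in the Cd2-high arrays against 11.45 to 12.23 in the Cd2-low ones. The mean of 4 muscle markers overlapped between the sets. Of these only Acta1 separated them, at 7.17 to 11.59 in the Cd2-high arrays against 6.92 to 7.15 in the Cd2-low ones. Ckm overlapped, at 7.08 to 10.95 in the Cd2-high arrays against 7.11 to 7.27 in the Cd2-low ones. The highest values of both genes were on Cd2-high WASP-intact arrays. The part of fibroblast or muscle RNA, or of what set Cd3d and Cd3g, in the Arpc1b levels was not tested.

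The subunits differed in how steady they were across the 10 lymphomas. Arpc2 had an SD of 0.06 and a range of 0.22, and 99.3% of genes tested had a larger SD. Arpc4 followed with an SD of 0.10, exceeded by 92.5% of genes, then Arpc1a with 0.13 and 81.9%, Arpc5 with 0.14 and 75.1%, Actr3 with 0.18 and 60.4%, and Arpc5l with 0.19 and 54.1%. Arpc1b was the exception, with an SD of 0.37, a range of 0.97 and only 19.6% of genes above it. That SD pools the 2 Cd2 sets, which for Arpc1b lay apart at 12.21 to 12.33 (Cd2-high) and 11.36 to 11.81 (Cd2-low). The median SD of all genes tested was 0.20, and 6 of the 7 subunits lay below it. Genes were not matched by level for this comparison.

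Regulators of the complex were read from a list of 42 genes in 6 roles, of which 39 were tested. By limma 1 was lower and 0 were higher, and that 1 was Was, against 0.00789% of all genes called. An unadjusted p under 0.05 was found for 3 of the 39, Was among them, and for 2.89% of all genes. The remaining 8 activators tested included Wasl, the widely expressed relative of Was, at 8.88 ± 0.14 in the WASP-deficient lymphomas and 8.87 ± 0.16 in the WASP-intact ones (SD, n = 5 each). Of 7 WAVE complex genes 0 passed, and Abi2, with the smallest p, had a log2 difference of 0.65 (SE 0.51, limma adjusted p = 0.999). It was 1.07 without WASP-deficient array 3, 0.39 without WASP-deficient array 4 and 0.27 without WASP-deficient array 5. Of 12 WASP partners, GTPases and adaptors 0 passed, and Pstpip1, a WASP-binding adaptor, had the smallest p, with a log2 difference of -0.23 (SE 0.10, limma adjusted p = 0.999). Of 4 WASH complex genes, which act on endosomes, 0 passed, and Washc5 had a log2 difference of 0.15 (SE 0.06). Of 7 inhibitors and factors that undo branches 0 passed, and Coro1a, a coronin of blood cells, had the smallest p with a log2 difference of -0.41 (SE 0.19). By Cd2 set, 5 of the 39 had all Cd2-high arrays higher and 5 all lower, beside 14.4% and 16.1% of all genes, so these counts are near what all genes show. Coro1a was among the higher ones, at 11.14 to 11.32 in the Cd2-high arrays against 10.27 to 10.89 in the Cd2-low ones, as was Hcls1, a cortactin relative of blood cells that binds the complex, at 10.81 to 10.91 in the Cd2-high arrays against 10.12 to 10.61 in the Cd2-low ones. Cyfip2, a WAVE complex subunit, was among the lower ones, at 8.63 to 9.10 in the Cd2-high arrays against 10.44 to 11.06 in the Cd2-low ones. Genes of the same roles went the other way. Coro1c was lower, at 11.16 to 11.29 in the Cd2-high arrays against 11.35 to 11.66 in the Cd2-low ones. Nckap1 of the WAVE complex was higher, at 9.85 to 9.95 in the Cd2-high arrays against 9.04 to 9.76 in the Cd2-low ones. Wipf1 and Arpin were also higher, and Rac1, Fnbp1l and Pick1 also lower.

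The genes whose levels followed Arpc1b most closely over the 7 Cd2-low arrays were Stag2, a cohesin subunit (Pearson r = 0.989), Knstrn, a spindle protein (0.987), and Psmb10, an immunoproteasome subunit (0.978). They were the top 3 of all genes tested and share arrays and normalization with Arpc1b, so these values describe the choice and carry no p. Stag2 also had all 3 Cd2-high arrays higher, at 10.38 to 10.46 in these against 9.57 to 10.15 in the Cd2-low arrays, and Knstrn and Psmb10 did not. For Arpc5 the closest were Atg9a (0.988), B4gat1 (0.986) and Fgd6 (0.975), and none of these had all Cd2-high arrays higher. Fgd6 had all 3 Cd2-high arrays lower, at 5.87 to 6.16 in these against 6.22 to 7.23 in the Cd2-low arrays. Its Cd2-high values were under the filter at log2 6.35.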

How the data were processed

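Microarrays of 10 NPM-ALK lymphomas were analysed, 5 WASP-deficient and 5 WASP-intact, grouped by sample title. The authors made the deposited intensities with RMA, per the submitters' processing notes, and the sources used here name no software, version, genome build or annotation for it. They ran from 3.309 to 15587.9, a linear scale, so log2 was taken. RMA's quantile step makes arrays alike, so array-wide shifts in RNA cannot be read. Replicates are called biological in the labels, 1 per mouse.

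Probe sets were named through the platform annotation, 21640 of 34760 with 1 symbol, with gene IDs checked against RefSeq genes of GRCm38.p6 (21553 matched, 0 symbols changed). Probe sets with means under the 40th percentile (log2 6.35) were left out, and the highest probe set per gene was kept, giving 12670 genes. WASP-deficient lymphomas were set against WASP-intact ones with lmFit and eBayes of limma 3.58.1 in R 4.3.3 and no covariate, with Benjamini-Hochberg adjustment over all genes and a threshold of 0.05. Paralogue ratios were tested by exact two-sided permutation in Python 3.11.15. The fit was tested on simulated data. The alternatives were other filters, probe set rules, offsets, scalings, moderation, array weights, covariates, the replicate block, and leaving out arrays.

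The members and lists were chosen with earlier results of these data known. The genes named are the members, Was, Cd2 and Xist, regulators past the threshold or of smallest p in a role, and the 3 genes most like Arpc1b and Arpc5. Wasl, the regulators named by Cd2 set (Coro1a aside) and the marker genes named singly were named after their values were seen.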

Additional observations from a re-analysis of the deposited data

Results flagged for a closer look

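Within each genotype, the highest and lowest of 5 arrays were set against the others for 7 subunits, Was and 2 paralogue ratios, 20 groups in all, and 2 values stood apart. Chance alone would single out about 1 in 20 groups. Arpc1a was at 9.995 on WASP-intact array 4, below the other 4 WASP-intact arrays at 10.187 to 10.242. Its gap made up 0.78 of the range of the group, against a critical value of 0.71. Arpc4 was at 10.556 on WASP-deficient array 3, below the other 4 WASP-deficient arrays at 10.783 to 10.853, a gap of 0.77 of the range. That array was also the lowest WASP-deficient one for Arpc1a, Actr3 and Arpc5l.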

How the results depend on the processing

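Over 21 alternatives 0 of 148 values for the 7 subunits passed, with limma adjusted p between 0.659 and 1, and 5 changed sign, each close to 0. Actr3 was 0.00 with array weights and Arpc4 -0.03 without the 3 Cd2-high arrays. Leaving out 1 array at a time, Arpc2 ran from 0.00 to 0.05, Arpc4 from 0.02 to 0.09, Arpc5 from -0.01 to 0.11, Arpc1a from 0.03 to 0.13, Arpc5l from -0.19 to -0.03, Actr3 from -0.17 to -0.05, Arpc1b from -0.46 to -0.22 and Abi2 from 0.27 to 1.07. The Xist covariate gave 0.22 for Arpc5 and 0.13 for Arpc2, the highest values of both over all alternatives. The number of regulators called was 0 with the replicate block and with the Xist covariate, where Was did not pass (-1.14, adjusted p = 0.136, and -1.06, adjusted p = 0.376). The cause was not tested for the block or for the covariate. The block uses up degrees of freedom, and apart from WASP-intact array 3 the Xist level cannot be told apart from genotype. Replicate numbers are shared between genotypes in name only. Deviations from the group means correlated at -0.714 to 0.366 between arrays of the same number. WASP-deficient arrays 1 to 5 matched WASP-intact arrays 5, 1, 2, 3 and 3 best, never that of their own number. The block changed no other call. Arpc1b minus Arpc1a ran from -0.54 to -0.16 and Arpc5l minus Arpc5 from -0.35 to -0.09 over their alternatives, never past the threshold. The correlation of Arpc1b and Arpc1a was 0.05 with median-centred arrays and -0.70 to 0.29 with 1 array left out, and that of Arpc5l and Arpc5 -0.36 to 0.55 (both chosen after seeing the data). With median-centred arrays the gap between Cd2 sets was -0.04 for Arpc5l and 0.03 for Actr3, that of Arpc5l was 0.10 without WASP-deficient array 4 and 0.07 without WASP-intact array 5, and that of Arpc1b stayed between 0.35 and 0.48. The other Arpc1b probe set, also chosen after seeing the data, gave -0.32 and a gap of 0.41. Deposited values hold no measure of background per probe set.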
